A study of Mus musculus with 40 samples.

Results

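The Hox gene clusters are stretches of DNA in which Hox genes, coding for homeodomain transcription factors that set position along the body axis, lie next to each other. The regions described here are the 100 bp tiles of a reduced representation bisulfite sequencing (RRBS) table that fall inside 4 fixed mm9 windows. These windows are Hoxa at chr6:52090000-52270000, Hoxb at chr11:96040000-96240000, Hoxc at chr15:102740000-102880000 and Hoxd at chr2:74480000-74620000, and they span 180, 200, 140 and 140 kb. They hold 433 Hoxa, 391 Hoxb, 303 Hoxc and 339 Hoxd tiles, 1466 of the 971845 tiles in the table, and a tile was taken by its position and not by its level. A value in at least 1 library was given for 1351 of the 1466 tiles, and 115 had none.

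The assay cuts DNA with a restriction enzyme, which enriches CpG-rich fragments, and reads their cytosine methylation by bisulfite conversion. Each value is the share of methylated reads in a tile. The 24 libraries were made from follicular B cells (FoB), a mature resting population, and from pro-B cells (ProB), an early stage of B-cell development, of C57/bl mice. At each stage there were 3 libraries of the double knockout lacking Tet2 and Tet3 (DKO), 3 of the Tet3 knockout (Tet3KO), 3 of the Tet2 knockout (Tet2KO) and 3 of the wild type (WT). Per the labels the knockouts were inducible and ran under the MB1 promoter, which is active in the B lineage. The mice were 6 to 8 weeks old. All Tet2KO libraries came from female mice, while the other groups mixed sexes, so sex and Tet2 genotype are partly confounded. All Tet3KO libraries came from mice of 7 weeks. WT and Tet2KO mice were 6 or 8 weeks old, and DKO mice 6 or 7. Age and genotype thus cannot be told apart between Tet3KO and WT. Leaving out pro-B library 8, as done below for cluster means, left only male mice in pro-B Tet3KO. Library numbers below are those of the sample titles, which run through all groups. The labels do not say whether each library came from its own animal, so the p-values below measure the spread between these libraries. The 16 RNA samples of the series were not analysed here, and the cell identity of the libraries was not checked against marker expression.

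Most DNA of the mammalian genome is methylated at CpG sites, whereas CpG-rich stretches such as promoters of developmental genes are usually kept free of methylation. Hox clusters are dense in such stretches, and in cells that do not use a Hox gene they are typically covered by Polycomb proteins, which repress genes without DNA methylation. Tet2 and Tet3 oxidise 5-methylcytosine, a step towards its removal. In blood, genes of the Hoxa and Hoxb clusters are known for their activity in stem and progenitor cells and are turned down as cells mature.

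RefSeq (GRCm38.p6) lists 39 Hox genes in the clusters, of which 11 are Hoxa, 10 Hoxb, 9 Hoxc and 9 Hoxd genes. From the lower to the higher coordinate the Hoxb genes run from Hoxb13 to Hoxb1, the Hoxc genes from Hoxc13 to Hoxc4 and the Hoxd genes from Hoxd13 to Hoxd1. The RRBS table uses mm9, for which no annotation was at hand, so its tiles are given by position and not by gene. Promoter sequences of 300 bases, from 250 before to 50 after the start, were at hand for 22 of the 39 genes, 24 sequences in all. The sequence with the most CCGG sites among those at hand is printed for each cluster. Such a sequence need not be typical of its cluster, and whether the assay read it was not checked. In Hoxb, with 3 sequences at hand, Hoxb8 and Hoxb1 tied at 1 site and Hoxb8, with more CpG dinucleotides, is printed; in Hoxc 1 sequence was at hand. CCGG is the site of MspI, the enzyme usually used in RRBS, and reads the same on both strands; capitals mark it. Hoxa13 patterns the distal limb and the urogenital tract, Hoxb8 acts in myeloid progenitors, Hoxc4 is expressed in lymphocytes and Hoxd10 patterns the limb and spinal motor neurons. In GRCm38.p6 these sequences lie at chr6:52260831-52261130 on the minus strand for Hoxa13, chr11:96281655-96281954 on the plus strand for Hoxb8, chr15:103034145-103034444 on the plus strand for Hoxc4 and chr2:74691641-74691940 on the plus strand for Hoxd10. These positions cannot be set beside the mm9 tiles.
Hoxa13: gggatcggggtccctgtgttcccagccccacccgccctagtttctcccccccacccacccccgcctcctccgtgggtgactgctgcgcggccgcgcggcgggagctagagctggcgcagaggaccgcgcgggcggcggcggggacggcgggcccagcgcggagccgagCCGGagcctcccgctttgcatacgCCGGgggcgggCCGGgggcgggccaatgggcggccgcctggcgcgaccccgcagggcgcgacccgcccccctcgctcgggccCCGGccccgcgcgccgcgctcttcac
Hoxb8: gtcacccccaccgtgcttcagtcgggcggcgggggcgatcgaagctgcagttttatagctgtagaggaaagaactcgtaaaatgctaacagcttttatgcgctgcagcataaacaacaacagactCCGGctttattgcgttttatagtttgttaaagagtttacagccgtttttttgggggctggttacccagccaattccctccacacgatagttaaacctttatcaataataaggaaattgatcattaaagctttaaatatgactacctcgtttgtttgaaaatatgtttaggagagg
Hoxc4: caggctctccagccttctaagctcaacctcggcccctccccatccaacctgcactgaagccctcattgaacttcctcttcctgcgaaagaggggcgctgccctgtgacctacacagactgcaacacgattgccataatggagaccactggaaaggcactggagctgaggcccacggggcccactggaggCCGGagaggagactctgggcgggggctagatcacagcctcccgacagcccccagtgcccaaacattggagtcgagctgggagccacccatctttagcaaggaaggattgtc
Hoxd10: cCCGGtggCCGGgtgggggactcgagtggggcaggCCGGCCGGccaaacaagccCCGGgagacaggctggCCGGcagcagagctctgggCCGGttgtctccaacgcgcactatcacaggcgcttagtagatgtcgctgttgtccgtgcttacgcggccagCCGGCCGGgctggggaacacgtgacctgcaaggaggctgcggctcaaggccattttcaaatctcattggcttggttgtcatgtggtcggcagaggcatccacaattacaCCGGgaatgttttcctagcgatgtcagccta
The Hoxa13 sequence holds 45 CpG dinucleotides and 4 CCGG sites, and the Hoxd10 sequence 22 and 10. The Hoxb8 and Hoxc4 sequences hold 13 and 9 CpG dinucleotides and 1 CCGG site each. Over the 24 Hox promoters the median was 14.5 CpG dinucleotides (range 4 to 45), and 19 of them (79.2%) held a CCGG site. Over the other 32827 promoters of the RefSeq table the median was 7 CpG dinucleotides, and 52.8% held a CCGG site.

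Methylation was low across the clusters. Pro-B Tet3KO library 8 stood apart, with a value at only 95 Hox tiles, whereas each of the other 23 libraries had 887 to 1178. Of the 1466 tiles, 583 had a value in all of those 23. The mean level over the 23 libraries was under 20% at 525 of these 583 tiles (90.05%), between 20 and 80% at 52 (8.919%) and over 80% at 6 (1.029%). The other 128013 autosomal tiles with a value in the same libraries divided as 66.43% under 20%, 10.05% between 20 and 80% and 23.51% over 80%. The Hox tiles thus held few tiles of full methylation, and their mean level was 8.059%, against 28.17% over the other autosomal tiles. Their median was 3.321%, against 2.279% for the others, so a typical Hox tile was not lower than a typical tile elsewhere. The table gives no read counts, so the depth behind a level, and with it a counting interval, is unknown, and the number of reads under a value of 0 or 100% cannot be given.

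At these 583 tiles the clusters differed in how much methylated DNA they held. Hoxc was the lowest by mean, at 6.829%, with 121 tiles under 20%, 8 between 20 and 80% and none over 80%. Its median of 4.475% was nevertheless the highest, since only 54.26% of its tiles lay under 5%. Hoxa had the highest mean, 9.05%, and the lowest median, 1.837%. In Hoxa 138 tiles lay under 20%, 16 between 20 and 80% and 4 over 80%, and 72.78% lay under 5%. Hoxb averaged 8.4%, with 116, 18 and 0 tiles in these classes, and Hoxd averaged 7.791%, with 150, 10 and 2.

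The levels along each cluster were read from the 761 tiles for which each of the 8 groups had 2 or 3 values, 204 in Hoxa, 188 in Hoxb, 164 in Hoxc and 205 in Hoxd. In this wider set 34 Hoxb tiles averaged at least 20%, 4 of them over 80%, against 27 and 8 in Hoxa. The order of the clusters given above thus holds for the 583 tiles only. In Hoxa the methylated tiles lay towards the lower-coordinate end. Tiles 20 to 40 kb into the window averaged 46.65% over the 8 groups (11 tiles) and those at 40 to 60 kb 34.24% (10 tiles). The level was 16.87% at 60 to 80 kb, 5.511% at 80 to 100 kb and 3.023% at 100 to 120 kb, where 51 tiles were measured and none reached 20%. The longest run of tested tiles under 10% in Hoxa was 18.3 kb (29 tiles), at chr6:52202601-52220900. At the far end of the window, 160 to 180 kb in, the level was again 11.37%.

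Joining tested tiles of at least 20% that lay within 500 bp gave 10 blocks of 2 or more tiles in Hoxa, 8 in Hoxb, 1 in Hoxc and 4 in Hoxd. Block levels below are means over the block's tiles in the libraries with a value at all of them. The Hoxa block at chr6:52120401-52120600, 30.4 kb into the window, was methylated at 93.1, 95.6 and 84.8% in FoB DKO, 95.3, 90.0 and 94.9% in FoB Tet3KO, 88.4, 92.2 and 87.5% in FoB Tet2KO and 93.6, 90.2 and 96.9% in FoB WT. In pro-B cells it stood at 84.3, 99.7 and 100% in DKO, 100 and 87.5% in Tet3KO, 96.4, 100 and 88.6% in Tet2KO and 96, 100 and 100% in WT. All libraries with a value were high, and every knockout overlapped WT of its stage. The block at chr6:52150301-52150500 was as high, with group means between 91.4 and 99.77%.

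Between these 2 blocks, the block at chr6:52125501-52125700 was intermediate and varied between groups. It was methylated at 55.6, 53.5 and 59.4% in FoB DKO, 43.6, 64.3 and 41.7% in FoB Tet3KO, 36.8, 46.9 and 23.95% in FoB Tet2KO, and 52.6, 47.9 and 55.9% in FoB WT. The 3 FoB Tet2KO libraries lay under the 3 FoB WT libraries, and the other knockouts overlapped them. In pro-B cells it stood at 82.3, 69.98 and 66.7% in DKO, 21.6 and 53.5% in Tet3KO, 78.7, 48.1 and 75.9% in Tet2KO and 78.8, 56.1 and 59.2% in WT. The block at chr6:52158301-52158500 averaged 51.25 ± 4.26% in FoB DKO and 42.94 ± 4.541% in FoB WT (SD, n = 3 each). Its FoB DKO libraries, at 46.3, 53.8 and 53.6%, overlapped the FoB WT libraries, at 47.5, 42.9 and 38.5%.

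In Hoxb the methylated tiles were scattered. The highest stretch lay 40 to 60 kb into the window, where 3 tiles averaged 92.59%, and the next was at 160 to 180 kb, with 23.91% over 19 tiles. The block at chr11:96092601-96092800 was methylated at 83.4, 84.1 and 89.8% in FoB DKO and 92.0, 85.6 and 89.0% in FoB WT. The nearby tile at chr11:96093301-96093400 had the highest mean of the cluster, 98.87%, and stood at 100% in all 3 FoB DKO libraries and at 92, 98.2 and 98.7% in the FoB WT libraries. Over the 8 groups the means of this tile spanned 3.697 points.

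A block of 4 tiles at chr11:96206901-96207500 was among those separated by genotype in follicular cells. It was methylated at 78.3 and 65.1% in the 2 FoB DKO libraries with a value, 67.9, 67 and 81% in FoB Tet3KO, 57.1, 63.2 and 59.9% in FoB Tet2KO, and 59.8, 52.1 and 33.3% in FoB WT. The DKO and Tet3KO libraries lay above the 3 WT libraries, while the Tet2KO libraries overlapped them. Only 1 pro-B WT library had a value there, 59.17%, so the pro-B groups could not be compared. The block was singled out after its values were seen, and no tile of it was called in any comparison given below. The next block, at chr11:96211301-96211500, had overlapping libraries, with 57.7, 62.7 and 79.2% in FoB DKO and 69.9, 66.8 and 42.8% in FoB WT.

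Hoxc was low along its whole length. No 20 kb stretch averaged above the 11.7% found 100 to 120 kb into the window, and the longest run under 10%, at chr15:102802701-102840200, covered 37.5 kb and 37 tested tiles. Its single block, at chr15:102799101-102799300, was methylated at 35.1, 35.6 and 52.5% in FoB DKO and 33.4, 30.3 and 32.3% in FoB WT. The 3 DKO libraries lay above the 3 WT libraries, the nearest pair by less than 2 points. In pro-B cells the block stood at 31.1, 21.4 and 0% in DKO and at 16.02, 41.5 and 41.9% in WT, and these ranges overlapped.

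In Hoxd the highest levels lay 80 to 100 kb into the window, at 13.1% (48 tiles, 7 of at least 20%), and at 0 to 20 kb, at 10.12% (29 tiles, 3 of at least 20%). The 40 to 60 kb stretch averaged 5.399% (57 tiles) but also held 3 tiles of at least 20%. The block at chr2:74480201-74480400, at the start of the window, was methylated at 82.7, 94.9 and 87.8% in FoB DKO and 91.8, 91.3 and 85.0% in FoB WT. The block at chr2:74565001-74565200 was methylated at 39.98, 34.9 and 36.6% in FoB DKO, 18.1, 15.8 and 51.3% in FoB Tet3KO, 27.6, 30.3 and 35.6% in FoB Tet2KO, and 30.5, 25.8 and 27.3% in FoB WT. Its DKO libraries were above its WT libraries, and the FoB Tet3KO libraries spanned the whole range. In pro-B cells it stood at 20.1, 25.5 and 30.3% in DKO, 9.66 and 3.80% in Tet3KO, 20.8, 17.4 and 32.4% in Tet2KO and 38.7, 16.9 and 23.2% in WT. The block in the 40 to 60 kb stretch, chr2:74538901-74539100, was methylated at 33.2, 35 and 33.5% in FoB DKO, 37.5, 32.8 and 45.5% in FoB Tet3KO, 28.65, 28.0 and 29.7% in FoB Tet2KO, and 36.8, 28.2 and 28.6% in FoB WT. Each knockout overlapped FoB WT. In pro-B cells it stood at 11.8 and 18.7% in Tet3KO, under the 3 WT libraries at 31.2, 41.4 and 34.2%, and it holds the Hoxd tile called below. Another block, at chr2:74567301-74567600, was higher, at 82.7 and 75.8% in FoB DKO and 73.7, 69.4 and 72.2% in FoB WT. The longest run under 10% in Hoxd, at chr2:74514401-74528300, covered 13.9 kb and 35 tested tiles.

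The genotype comparison asks how levels in these clusters stood without Tet2, Tet3 or both. In follicular cells the mean level over the 583 tiles was 9.09, 8.85 and 9.13% in the DKO libraries, 8.99, 8.84 and 8.90% in the Tet3KO libraries, 8.53, 8.30 and 7.99% in the Tet2KO libraries and 8.19, 7.85 and 8.27% in the WT libraries. The DKO and Tet3KO libraries all lay above the WT libraries, and the Tet2KO libraries overlapped them. The difference from WT was 0.924 points for DKO (SE 0.1566), 0.809 points for Tet3KO (SE 0.1365) and 0.172 points for Tet2KO (SE 0.2032). Over the other autosomal tiles the differences were 1.14, 0.79 and 0.38 points, also with all DKO and Tet3KO libraries above all WT libraries. Whether the Hox tiles differed from the other tiles in this was not tested.

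The clusters were not alike. Hoxc had the widest difference in follicular cells, with 7.38, 7.70 and 8.52% in DKO against 6.30, 6.16 and 6.60% in WT, a difference of 1.513 points (SE 0.3653). The FoB Tet3KO libraries, at 7.94, 7.02 and 7.81%, and the FoB Tet2KO libraries, at 7.50, 6.89 and 6.61%, also lay above the WT libraries of Hoxc. For Tet2KO the margin was slight, with 6.61% against 6.597% at the nearest pair. In Hoxb DKO stood at 9.99, 9.38 and 9.65% and WT at 9.02, 8.59 and 8.16%, without overlap, and in Hoxd DKO stood at 8.61, 8.44 and 8.78% and WT at 7.89, 6.99 and 8.06%, again without overlap. In Hoxa the DKO libraries, at 10.2, 9.77 and 9.54%, overlapped the WT libraries, at 9.33, 9.47 and 9.94%, and the difference of 0.262 points was smaller than its SE of 0.2725. The Hoxa level of FoB Tet2KO, 8.98, 9.22 and 8.25%, lay under that of FoB WT by 0.765 points (SE 0.3457), without overlap.

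In pro-B cells every knockout overlapped WT over the 4 clusters together. DKO averaged 7.994 ± 0.3258%, Tet3KO 7.066 ± 0.1392%, Tet2KO 7.605 ± 0.5268% and WT 7.167 ± 0.5309% (SD, n = 3, with n = 2 for Tet3KO). The differences from WT were 0.827 points for DKO, -0.101 for Tet3KO and 0.438 for Tet2KO. Over the other autosomal tiles they were 1.17, 0.19 and 0.84 points. There all DKO and Tet2KO libraries lay above all WT libraries, for Tet2KO with 27.28% against 27.24% at the nearest pair. Whether the Hox tiles differed from the other tiles was not tested. In Hoxc the pro-B Tet2KO libraries, at 7.01, 7.36 and 6.90%, lay above the WT libraries, at 6.50, 5.32 and 6.03%, as did the 2 pro-B Tet3KO libraries, at 6.68 and 6.63%, by 0.703 points (SE 0.3431). The pro-B DKO libraries, at 5.62, 6.33 and 6.26%, overlapped them. In Hoxa the 2 pro-B Tet3KO libraries, at 6.90 and 7.44%, lay under the WT libraries, at 8.94, 8.16 and 8.80%, by 1.468 points (SE 0.3619). Pro-B DKO was higher than WT on average by 1.424 points in Hoxb (SE 0.7515) and 0.891 points in Hoxd (SE 0.4482), with overlapping libraries. Averaged over both stages, DKO minus WT was 0.5462 points in Hoxa (SE 0.251), 1.253 in Hoxb (SE 0.4054), 0.8173 in Hoxc (SE 0.2744) and 0.9284 in Hoxd (SE 0.2826). After each library's own autosomal mean had been subtracted, these differences were -0.6101, 0.09711, -0.339 and -0.2279 points. On this scale the sign turned in Hoxa, Hoxc and Hoxd.

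The stage comparison asks how levels in mature follicular cells stood against those in pro-B cells of the same genotype. Over the 4 clusters follicular cells were higher in WT by 0.934 points (8.101 ± 0.2254% against 7.167 ± 0.5309%), in DKO by 1.031 points (9.025 ± 0.151% against 7.994 ± 0.3258%) and in Tet3KO by 1.844 points (8.91 ± 0.07153% against 7.066 ± 0.1392%), each as mean ± SD of 3 libraries or, in pro-B Tet3KO, 2. In these 3 genotypes no follicular library overlapped a pro-B library. In Tet2KO the difference was 0.668 points (8.273 ± 0.2703% against 7.605 ± 0.5268%) and the libraries overlapped. Over the other autosomal tiles the same differences were 1.2 points in WT, 1.17 in DKO, 1.8 in Tet3KO and 0.74 in Tet2KO. Averaged over genotypes, follicular minus pro-B was 1.041 points in Hoxa (SE 0.1939), 1.596 in Hoxb (SE 0.3176), 0.7612 in Hoxc (SE 0.1717) and 1.086 in Hoxd (SE 0.1641), and -0.1837, 0.3716, -0.4632 and -0.1379 points after subtraction of each library's autosomal mean.

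By cluster, WT follicular and pro-B libraries did not overlap in Hoxa and Hoxb but did in Hoxc and Hoxd. Overlap does not mean that matched libraries differed in sign: libraries of the same sex and age could be set side by side, 1 to 1 in WT. In Hoxd follicular WT was higher by 0.17 points in 8-week males, 0.707 in 6-week males and 1.579 in 6-week females. In Hoxc the same differences were -0.196, 0.836 and 0.572 points. In Tet2KO, over the 4 clusters, the difference was 0.938 points in the 8-week females (1 library a stage) and 0.533 points in the 6-week females (2 libraries a stage). The labels do not say that such libraries came from the same mouse. In Hoxb follicular WT stood at 9.02, 8.59 and 8.16% and pro-B WT at 7.58, 6.85 and 6.63%. In Hoxc the largest stage difference was in DKO, with 7.38, 7.70 and 8.52% in follicular cells and 5.62, 6.33 and 6.26% in pro-B cells. This was a difference of 1.795 points (SE 0.4094), against 0.404 points in WT (SE 0.3656). The stage differences of DKO and WT were 1.391 points apart, and no test of this is given here. The values listed at exactly 0 moved with stage. They made up 18.7 to 31.9% of the 583 Hox tiles in follicular libraries, against 30.36 to 54.55% in pro-B libraries, with pro-B WT highest at 50.94 ± 4.103% and follicular WT at 21.5 ± 2.344% (SD, n = 3 each). The share of zeros at the other autosomal tiles is not given here, so this shift cannot be called particular to the Hox tiles. Pro-B libraries other than library 8 had a value at 264568 to 608211 autosomal tiles, and follicular libraries at 400635 to 589065. The part of these zero values, and of the depth behind them, in the stage difference was not tested.

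The tiles of low and of intermediate level were also read apart. At the 52 Hox tiles between 20 and 80%, FoB DKO averaged 39.34 ± 0.304%, FoB Tet3KO 39.37 ± 1.567%, FoB Tet2KO 36.29 ± 0.8233% and FoB WT 36.47 ± 1.025% (SD, n = 3 each). DKO was higher than WT by 2.87 points (SE 0.6173) and Tet3KO by 2.9 points (SE 1.081), neither overlapping WT. At the 12871 other autosomal tiles of that class FoB DKO averaged 55.54 ± 2.079% and FoB WT 49.95 ± 0.689%, a difference of 5.59 points (SE 1.265). At the 525 Hox tiles under 20% FoB DKO averaged 5.119 ± 0.1749% and FoB WT 4.346 ± 0.191%, a difference of 0.773 points (SE 0.1495), against 0.745 points (SE 0.1123) at the other tiles under 20%. The difference between Hox and other tiles was not tested, and the Hox tiles of intermediate level stood lower within the class.

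Within the intermediate class the stage difference was the widest in Tet3KO of the 4 genotypes, which were not tested against each other. These tiles averaged 39.37 ± 1.567% in follicular Tet3KO and 29.84 ± 1.317% in pro-B Tet3KO (n = 3 and 2), a difference of 9.53 points (SE 1.298), and the other autosomal tiles of the class differed by 10.08 points (SE 1.506). In WT the Hox tiles averaged 36.47 ± 1.025% in follicular and 32.55 ± 2.336% in pro-B cells, a difference of 3.92 points (SE 1.473), against 6.47 points elsewhere. By cluster the Tet3KO stage difference at tiles of 20 to 80% was 10.88 points in Hoxa (16 tiles), 7.19 in Hoxb (18 tiles), 7.8 in Hoxc (8 tiles) and 12.95 in Hoxd (10 tiles), without overlap in any cluster. Another genotype had a wider difference in Hoxb, where Tet2KO differed by 9.52 points (SE 5.126) with overlap, and in Hoxc, where DKO differed by 9.56 points (SE 2.246) without overlap. In WT the differences were 6.99, 4.1, 0.49 and 1.44 points in Hoxa to Hoxd, all with overlap.

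Single tiles were tested with limma over all 200813 autosomal tiles with enough values. To be called, a tile needed an adjusted p (Benjamini-Hochberg) under 0.05 and group means 20 points or more apart. No Hox tile of the 761 was called in FoB DKO against FoB WT, where 0.129% of all tested tiles were called, nor in FoB Tet3KO or FoB Tet2KO against FoB WT, where 0.00996% and 0.00299% were called. At an unadjusted p under 0.05 stood 31 Hox tiles for DKO, 33 for Tet3KO and 29 for Tet2KO, that is 4.074, 4.336 and 3.811% of the 761, against 5.82, 3.96 and 2.87% of all tested tiles. These shares lie near the background, and 1, 0 and 0 of these tiles had an adjusted p under 0.05. Of all 200813 tested tiles 543, 113 and 59 had one, so the Hox share was not above the background. In FoB DKO against FoB WT 439 of the 761 Hox tiles had the higher mean in DKO and 286 the lower. Of all 200813 tested tiles 105803 were higher and 71451 lower, so the counts alone set the Hox tiles little apart. The median difference was 0.4726 points at the Hox tiles, against 0.1061 points over all tested tiles. The mean difference was in the other order, 1.025 points against 1.315. A difference of 20 points or more was seen at 3 Hox tiles (0.3942%), against 1.945% of all tested tiles.

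In pro-B cells no Hox tile was called in DKO or Tet2KO against WT, where 0.231% and 0.0687% of all tested tiles were called. At an unadjusted p under 0.05 stood 61 and 37 Hox tiles, which is 8.016 and 4.862% of the 761 against 8.83 and 6.76% of all tested tiles. In pro-B Tet3KO against WT 1 Hox tile was called lower and none higher, where 0.421% of all tested tiles were called, 0.257% lower and 0.164% higher. At an unadjusted p under 0.05 (limma) stood 50 Hox tiles, 6.57% of the 761 against 10.3% of all tested tiles. Between stages no Hox tile was called in WT, Tet2KO or DKO, where 0.181, 0.0563 and 0.168% of all tested tiles were called, and 45, 46 and 70 Hox tiles had an unadjusted p under 0.05 (limma), against 8.5, 5.96 and 9.76% of all tested tiles. In Tet3KO 2 Hox tiles were called higher and 1 lower in follicular cells, where 0.417% of all tested tiles were called, 0.379% higher and 0.0378% lower. At an unadjusted p under 0.05 (limma) stood 74 Hox tiles, 9.724% of the 761 against 11.9% of all tested tiles. The difference between the stages in the effect of DKO was called at no Hox tile, against 0.0289% of all tested tiles, and 35 Hox tiles had an unadjusted p under 0.05 (limma), against 5.52% of all.

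The 3 tiles called in any comparison all involve pro-B Tet3KO, the group with 1 sparse library. The Hoxd tile at chr2:74539001-74539100 was methylated at 7.10, 0 and 7.41% in pro-B Tet3KO and at 38.1, 40 and 45.4% in pro-B WT. All Tet3KO libraries lay far below all WT libraries, and the difference was -36.3 points (SE 6.695, limma adjusted p = 0.0154). Follicular Tet3KO stood at 50, 30.9 and 43.6%, above pro-B Tet3KO by 36.68 points (SE 6.695, limma adjusted p = 0.0138). The other groups lay between 18.5 and 44.4%, with 35.7, 36.7 and 33.6% in FoB DKO, 23.1, 33.3 and 33% in FoB Tet2KO, 37.6, 40 and 27.6% in FoB WT, 44.4, 36.1 and 26.6% in pro-B DKO and 18.5, 30.95 and 27.2% in pro-B Tet2KO. Each library of those groups lay above the 3 pro-B Tet3KO libraries. Library 8, the sparse one, gave the value of 0, and without it the differences were -33.89 and 34.27 points with limma adjusted p = 0.0553 and 0.0508, so both calls were lost. With the sex and age strata as a replicate block the limma adjusted p was 0.313 against pro-B WT and 0.0283 between stages, and in fits of the compared groups alone it was 0.339 and 0.236. Tet3KO and WT share no stratum of sex and age, so with the block they were compared only through DKO. The blocked p against WT thus cannot tell whether the call depends on sex or age.

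The Hoxa tile at chr6:52111001-52111100 was methylated at 30.9, 29.8 and 28.3% in follicular Tet3KO and at 5.34 and 0.873% in the 2 pro-B Tet3KO libraries with a value, a difference of 26.54 points (SE 5.193, limma adjusted p = 0.0244). Every other library at this tile lay between 11.9 and 35.5%, above both pro-B Tet3KO values. The block that begins in the next tile, chr6:52111101-52111300, stood at 28.2 and 25.8% in pro-B Tet3KO and 36.6, 51.8 and 33.9% in follicular Tet3KO. The Hoxc tile at chr15:102793901-102794000 went the other way, at 18.5, 11 and 7.69% in follicular Tet3KO and 56.4 and 81.8% in pro-B Tet3KO, a difference of -56.74 points (SE 10.61, limma adjusted p = 0.021). FoB DKO stood at 18.4, 14.3 and 50% there, FoB WT at 14.3, 24.7 and 16.9% and pro-B WT at 25.9, 20.6 and 45%. The Hoxa call was lost without pro-B Tet3KO library 9 (24.3 points, limma adjusted p = 0.082). The Hoxc call was lost without that library (-44.03 points, limma adjusted p = 0.0881) or without FoB Tet3KO library 21 (-54.4 points, limma adjusted p = 0.0591). With the replicate block the limma adjusted p was 0.134 at the Hoxa tile and 0.0648 at the Hoxc tile, and with the compared groups alone 0.195 and 0.379. Library 8 had no value at these 2 tiles, so without library 9 pro-B Tet3KO was a single library, assumed to vary like the other groups.

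Some further tiles passed the adjusted threshold with a difference under 20 points. At any size of difference, 1 of the 761 Hox tiles passed in pro-B DKO against WT and 1 between the DKO stages. In pro-B Tet3KO against WT 3 passed, with the called tile among them. Of all 200813 tested tiles 682, 925 and 1352 passed in these comparisons, in each a larger share than among the Hox tiles. The Hoxd tile at chr2:74497201-74497300 was methylated at 7.02 and 3.70% in the 2 FoB DKO libraries with a value and at 1.85, 0 and 0% in FoB WT, a difference of 4.743 points (SE 0.7104, limma adjusted p = 0.0122). Pro-B DKO was listed at 0 in all 3 libraries, and the stage difference of DKO was 5.361 points (SE 0.7104, limma adjusted p = 0.00527). All other libraries with a value at this tile, in the remaining 5 groups, were listed at 0. The limma SE pools the spread of all groups, so here it rests largely on groups listed at 0. The 2 FoB DKO values alone had an SD of 2.343 points. With the replicate block the limma adjusted p was 0.409 against FoB WT and 0.0894 between stages. DKO and WT share only the stratum of 6-week females, so the blocked comparison with WT rests on few libraries. The Hoxb tile at chr11:96227801-96227900 was methylated at 14.4, 11.8 and 5.97% in pro-B DKO and was listed at 0 in all 3 pro-B WT libraries, a difference of 10.74 points (SE 2.093, limma adjusted p = 0.0379). Follicular DKO stood at 0, 2.63 and 0% there, under pro-B DKO by 9.86 points with a limma adjusted p of 0.0508. The difference from pro-B WT missed the threshold without pro-B WT library 1 (limma adjusted p = 0.0607), pro-B DKO library 10 (0.0701) or pro-B DKO library 11 (0.0596), and with the replicate block (0.442).

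In pro-B Tet3KO the Hoxd tile at chr2:74494301-74494400 was methylated at 12.5 and 7.43%, against 0, 2.13 and 1.69% in pro-B WT, a difference of 8.694 points (SE 1.688, limma adjusted p = 0.024). The Hoxc tile at chr15:102797301-102797400 was methylated at 14.2 and 16.6% in pro-B Tet3KO, against 0, 7.79 and 2.65% in pro-B WT, a difference of 11.89 points (SE 2.401, limma adjusted p = 0.0298). Both missed the threshold without pro-B WT library 1 (limma adjusted p = 0.0565 at the Hoxd and 0.0753 at the Hoxc tile). With the replicate block, which compares Tet3KO with WT only through DKO, both also missed the threshold (limma adjusted p = 0.575 and 0.179). The Hoxd tile also missed it without pro-B Tet3KO library 7 (0.105), and the Hoxc tile without library 9 (0.095); at both tiles this left 1 pro-B Tet3KO library, with the spread taken from the other groups. These tiles were higher in pro-B Tet3KO, whereas the called Hoxd tile was lower. Over the 761 tiles 310 had the higher mean in pro-B Tet3KO and 305 the lower, against 73956 and 65001 of all 200813 tested tiles. The Hoxb tile at chr11:96165901-96166000 was methylated at 8.51, 16.2 and 32.1% in pro-B DKO and was listed at 0 in the pro-B WT libraries, a difference of 18.96 points that missed the threshold (SE 4.256, limma adjusted p = 0.0802). In the comparisons without a pass, the Hoxa tile at chr6:52194701-52194800 averaged 21.68% in pro-B WT and 7.32% in pro-B Tet2KO. The other tiles of smallest p in these comparisons lay at low levels. In FoB Tet2KO against FoB WT, for example, the Hoxb tile at chr11:96060401-96060500 was listed at 0 in both Tet2KO libraries with a value and stood at 14.3, 8 and 7.81% in WT, a difference of -10.03 points (SE 3.409) with a limma adjusted p of 1.

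Some tiles of intermediate level spread widely with no call. The Hoxb tile at chr11:96176701-96176800 had the widest range of group means, 65.19 points, with 58.1, 37.5 and 100% in follicular Tet3KO and 0% in both pro-B Tet3KO libraries with a value. The Hoxc tile at chr15:102842701-102842800 stood at 85.7, 57.1 and 81.8% in FoB Tet3KO, 28.6, 52.2 and 68.2% in FoB DKO, 33.3, 43.3 and 37.1% in FoB Tet2KO and 35.8, 27.7 and 33.3% in FoB WT. Its Tet3KO libraries lay above its WT libraries, while DKO overlapped WT. The Hoxd tile at chr2:74565001-74565100 stood at 51.1, 56.7 and 34.5% in FoB DKO against 45.5, 28.9 and 28.1% in FoB WT, and at 0% in both pro-B Tet3KO libraries with a value. These tiles were picked for their range, so their separation is a description.

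The DNA around the windows was less well covered. Within 100 kb on either side, 6 tiles at Hoxa, 17 at Hoxb, 19 at Hoxc and 10 at Hoxd had a value in the 23 libraries. The Hoxa window averaged 9.05 ± 0.866%, against 18.52 ± 5.05% in its flanks (SD over 23 libraries), and was lower in 22 of 23 libraries. The Hoxb window averaged 8.4 ± 1.153%, against 25.34 ± 3.0% in its flanks, and was lower in all 23 libraries. At Hoxc the window averaged 6.829 ± 0.7648% and its flanks 8.751 ± 2.143%, and the window was lower in 19 libraries. At Hoxd the order was the other way, with 7.791 ± 0.7454% in the window and 0.1682 ± 0.1781% in the 10 flanking tiles, in all 23 libraries. With so few flanking tiles these are descriptions, and no test is given.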

How the data were processed

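DNA methylation levels were taken from 24 RRBS libraries, 8 groups of 3, grouped by their labels. The authors deposited a methylation fraction between 0 and 1 per library for each 100 bp tile; the file holds no read counts. The submitters' processing notes name Trim Galore and methylKit without versions, and the builds mm9 and hg19. The aligner is not given in the sources used here. Fractions were multiplied by 100. The depth is unknown, so no counting interval is given.

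Limma 3.58.1 (R 4.3.3) was fitted to each of 200813 autosomal tiles for which each group had 2 or 3 values, with the 8 groups as a factor (16 residual degrees of freedom where no value is missing), a trended prior and Benjamini-Hochberg adjustment over all tiles. Cluster means leave out the sparse pro-B Tet3KO library 8 and use tiles measured in all 23 others. Tiles were taken by position, but the 4 windows and the lists were chosen with earlier results of these data known. Permutation tests of cluster means were run but are not given here. Differences carry an SE and a statement of overlap. Named tiles are those called, the 3 of smallest p in each of 10 comparisons, and the 3 per cluster of highest mean or widest range; further blocks were picked after their values were seen. The procedure was tested on simulated data. Alternatives were other scales, fits, covariates, tile sets, summaries and centring, a 30 point threshold, and each library left out. Replicate numbers run from 1 to 24 and state no pairing. Taken in title order within each genotype, pro-B and follicular libraries matched in sex and age. Whether matched libraries came from the same mouse is not stated, and SEs of stage differences treat all libraries as independent. Strata of sex and age served as a block. Tet3KO shares no stratum with WT, and DKO and Tet2KO share only the 6-week females with WT. Blocked comparisons with WT thus rest on few shared libraries.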

Additional observations from a re-analysis of the deposited data

How the results depend on the processing

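Cluster means, in points (knockout minus WT over both stages, or follicular minus pro-B), moved as follows. On the 16026 tiles with a value in all 24 libraries, of which 64 are Hox tiles, DKO minus WT was 1.02 in Hoxa, 0.31 in Hoxb and 1.31 in Hoxc. There Tet3KO minus WT was -1.12 in Hoxb, 0.43 in Hoxc and -1.04 in Hoxd, and Tet2KO minus WT was 0.96 in Hoxa, 2.23 in Hoxc and -0.84 in Hoxd. The stage difference was 2.39 in Hoxa and 0.30 in Hoxd. After subtraction of each library's autosomal mean DKO minus WT was -0.61, 0.097, -0.34 and -0.23 in Hoxa to Hoxd, Tet3KO minus WT was -1.16 in Hoxa, 0.48 in Hoxc and 0.059 in Hoxd, and Tet2KO minus WT was -1.04, 0.28 and -0.016 in the same clusters. The stage difference was then -0.18, 0.37, -0.46 and -0.14 in Hoxa to Hoxd. With the median over tiles DKO minus WT was 0.014 in Hoxa and 1.76 in Hoxd, Tet3KO minus WT was 0.14 in Hoxa, -0.068 in Hoxb and 1.22 in Hoxd, and Tet2KO minus WT was 0.090 in Hoxa and 1.29 in Hoxd. The stage difference of medians was 1.62 in Hoxa and 1.60 in Hoxc. Tiles of 20 to 80% alone gave DKO minus WT of 4.83, 2.07 and 3.01 in Hoxa to Hoxc. They gave Tet3KO minus WT of -3.39, 3.69, 3.36 and -3.41 in Hoxa to Hoxd, and Tet2KO minus WT of -2.06 in Hoxa, 2.00 in Hoxc and -0.50 in Hoxd. Their stage differences were 5.18, 6.10, 4.94 and 4.87. Window minus flanks was -15.1, -9.34 and 3.36 with medians in Hoxa, Hoxb and Hoxd, -12.0 in Hoxb with 50 kb flanks and 6.69 in Hoxd on the tiles of all 24 libraries. Smaller moves, within 1 SD between libraries but over 1.5 times or of changed sign, were DKO minus WT of 0.498 in Hoxb with medians, and Tet3KO minus WT of -0.330 in Hoxa on the tiles of all 24 libraries and 0.222 in Hoxb after subtraction of the autosomal mean. Tet2KO minus WT in Hoxb, 0.256, was -0.406 on the tiles of all 24 libraries, -0.354 after that subtraction, 0.586 over all tested tiles and 0.167 on tiles of 20 to 80%. The stage difference in Hoxc was 1.17 on the tiles of all 24 libraries, and window minus flanks in Hoxc was -0.0926 with medians. The causes of the changed signs were not tested.

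Counts of called Hox tiles moved as follows. With the replicate block of sex and age strata, pro-B DKO against WT had 1 higher and 1 lower, follicular against pro-B Tet3KO had 1 higher and 0 lower, follicular against pro-B DKO had 1 higher, and the difference between stages had 1 higher. Fitting only the compared groups left 0 lower in pro-B Tet3KO against WT, and 0 higher and 0 lower between the Tet3KO stages. Centring libraries gave 5 higher and 2 lower between the Tet3KO stages, and 2 higher and 1 lower between the DKO stages. A log-odds (logit) scale and sex as a covariate each gave 3 higher and 1 lower between the Tet3KO stages. Between the Tet3KO stages 30 points gave 1 higher, and both the tiles of all 24 and of 23 libraries gave 0 lower; the tiles of all 24 gave 0 lower in pro-B Tet3KO against WT. Leaving out a library in turn gave 0 to 1 higher in FoB DKO against WT, in pro-B DKO and pro-B Tet2KO against WT and between the WT stages, 0 to 7 higher in pro-B Tet3KO against WT, 1 to 4 higher between the Tet3KO stages and 0 to 2 higher between the DKO stages. It gave 0 to 3 lower in pro-B DKO, 0 to 1 in pro-B Tet2KO and 0 to 4 in pro-B Tet3KO against WT, 0 to 4 between the Tet3KO stages, 0 to 1 between the WT and between the DKO stages, and 0 to 1 either way for the difference between stages. The counts moved without pro-B WT library 1, 2 or 3, pro-B Tet3KO library 7, 8 or 9, pro-B DKO library 10 or 11, FoB Tet3KO library 21 and FoB DKO library 23 or 24. In FoB DKO against WT the 1 higher tile came without FoB DKO library 24, and in pro-B Tet3KO against WT the 7 higher came without pro-B Tet3KO library 7. Library 8 had no value at 683 of the 761 tested Hox tiles, so leaving out library 7 or 9 left 1 pro-B Tet3KO library there, assumed to vary like the other groups; those counts say little of stability. The Hoxa tile at chr6:52167301 had -0.22 points between the WT stages with libraries centred, against 0.54.

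The labels give no shared replicate numbers, but each pro-B library has a follicular library of the same genotype, sex and age. The match is unique for every WT library and for some of the knockout libraries. With these strata as a replicate block the stage difference of the cluster means was 0.994, 1.62, 0.832 and 1.08 points in Hoxa to Hoxd, against 1.04, 1.60, 0.761 and 1.09 without it. Unknown depth limits every level.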
